A study of Mus musculus with 16 samples.

Results

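The mRNAs of 10 mouse selenoprotein genes were followed in RNA bisulfite sequencing libraries of J1 embryonic stem cells. The genes were Gpx1, Gpx4, Txnrd1, Txnrd2, Selenow, Selenoh, Selenot, Selenof, Selenok and Selenos. They were chosen by name, and every RefSeq mRNA reference of each that the mRNA-fraction tables list was taken, which gave 15 references of 15330 and 2466 cytosines of 4938637. Of these cytosines, 965 had at least 10 reads in all 6 libraries and are the ones whose non-conversion is given singly. The genes were named with earlier results of the same libraries in view, the coverage and the non-conversion by genotype among them, so the genotype values of the members stand below as a description with intervals and carry no p-value.

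The libraries compared were 3 of Dnmt2-/- cells and 3 of wild type cells, all in the J1 background, a widely used mouse embryonic stem cell line. Dnmt2, listed by its current symbol Trdmt1, is the enzyme that methylates a cytosine in the anticodon loop of several tRNAs, and its loss is constitutive in the mutant cells. Both genotypes were grown on a mouse embryonic fibroblast feeder layer, and feeders were taken out by letting them attach before the stem cells were frozen. The RNA was split by size near 200 nt, the long fraction was depleted of ribosomal RNA and fragmented, and both fractions were treated with bisulfite. The labels number the replicates 1 to 3 and do not say that they came from separate cultures or clones, so the spread between them may be partly technical.

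In bisulfite-treated RNA an unmodified cytosine is read as thymine, while 5-methylcytosine resists and is read as cytosine. The share of reads that keep the cytosine is called non-conversion here. It counts methylated cytosines together with cytosines that bisulfite failed to convert, and these data do not separate them at a single site. The tables give the reads at each cytosine, called coverage, and its non-conversion.

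Selenoproteins carry selenocysteine, an amino acid inserted at an in-frame UGA codon that would otherwise stop translation. Insertion needs a stem-loop element in the mRNA's 3′ end, its binding protein Secisbp2, a dedicated elongation factor, Eefsec, and a tRNA of its own that is first charged with serine. Glutathione peroxidases and thioredoxin reductases use the residue to reduce peroxides and thioredoxin, and in stem cells Gpx4 guards membranes against lipid peroxidation.

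The references of a gene with several isoforms were covered in short stretches, and the start of 6 of the 15 references could be placed on the genome. The listed cytosine positions were set against RefSeq sequence around annotated transcription starts on GRCm38.p6, and a place was accepted where at least 8 listed cytosines all fell on cytosines. For Gpx4 NM_008162.3, 44 of 44 cytosines in the window matched, and for Gpx4 NM_001037741.3, 11 of 11 did. Base 1 of the second reference lay 531 bases downstream of base 1 of the first, so the references have different starts. The stretches printed here show the base sequence behind these isoform readings, with capitals for cytosines listed in at least 1 library and lower case for everything else. The first is the coding start of Gpx4 NM_008162.3 on the plus strand, chr10:80053632-80053708, where the printed ATG begins at transcript position 145 and encodes the start of the mitochondrial form.
Gpx4 NM_008162.3 coding start: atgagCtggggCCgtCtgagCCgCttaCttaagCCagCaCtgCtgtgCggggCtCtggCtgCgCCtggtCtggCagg
The other 3 are the transcript starts of Gpx4 NM_001037741.3, the nuclear form, at chr10:80053959-80054048 on the plus strand, of Txnrd1 NM_001042514.1 at chr10:82860281-82860370 on the plus strand, and of Selenow at chr7:15922342-15922431 on the minus strand, each with 60 bases before base 1 and 30 bases from it onward.
Gpx4 NM_001037741.3 start: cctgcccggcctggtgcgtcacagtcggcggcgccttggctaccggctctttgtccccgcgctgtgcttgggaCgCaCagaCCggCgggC
Txnrd1 NM_001042514.1 start: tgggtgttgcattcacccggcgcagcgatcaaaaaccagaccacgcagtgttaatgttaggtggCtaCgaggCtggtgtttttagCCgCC
Selenow NM_009156.2 start: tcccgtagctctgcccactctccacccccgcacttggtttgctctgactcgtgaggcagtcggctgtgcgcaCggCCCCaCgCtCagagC
Over the 44 matched Gpx4 cytosines, which lie before and within the printed coding start, pooled non-conversion was 1.71%, 1.41% and 1.30% in the Dnmt2-/- libraries and 1.27%, 1.40% and 1.12% in the wild type libraries. Few reads of this window thus kept a C in any library of either genotype. At the Selenow start the 12 matched cytosines averaged 3.92, 4.83 and 10.0 reads in the Dnmt2-/- libraries and 1.92, 7.42 and 2.67 reads in the wild type libraries, too few for single-site levels.

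Summed coverage of the mRNA fraction was 93517724 to 109992584 reads over cytosines in the Dnmt2-/- libraries and 37786723 to 143488903 in the wild type libraries, and wild type replicate 3 was the shallowest. Coverage below is the mean number of reads per cytosine of a reference, over the cytosines listed in any library, scaled between libraries by TMM factors. It is a depth per position and does not grow with transcript length. The targeted gene, Trdmt1, had 1.42, 0.501 and 1.07 scaled reads per cytosine in the Dnmt2-/- libraries, against 4.73, 3.80 and 3.21 in the wild type libraries. The groups did not overlap, and the log2 coverage difference was −1.59 ± 0.368 (SE, n = 3 each), with an adjusted p of 0.375 by limma. The 10 marker genes of embryonic stem cells summed to 2311 to 3045 scaled reads per cytosine in Dnmt2-/- cells and 2026 to 2411 in wild type cells. The 12 feeder fibroblast marker references were low, at 50.8 to 76.6 in Dnmt2-/- cells and 60.1 to 112 in wild type cells, and none was at 0 in all 6 libraries. Of these 12, 1 was higher and 11 were lower in Dnmt2-/- cells, with a median log2 coverage difference of −0.61. None of them was called, beside 0% of all references tested. Of 10 stem cell marker references tested, 8 were higher and 2 lower, with a median of 0.16 and 0 called, beside the same 0%. The best covered of these markers, Dppa5a, had 1966, 1913 and 1401 scaled reads per cytosine in the Dnmt2-/- libraries, against 1363, 1041 and 1085 in the wild type libraries. The best covered feeder marker, Tagln, had 29.8, 30.5 and 25.8 in the Dnmt2-/- libraries, against 20.7, 19.9 and 28.8 in the wild type libraries. Tagln was the 1 feeder reference that was higher in Dnmt2-/- cells, with a log2 coverage difference of 0.32. Acta2, the next best covered, was lower like the rest, at −0.30. The part of these cell type markers in the member values was not tested. In bulk libraries such as these, fewer cells of a type and less RNA per cell cannot be told apart.

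Coverage of most selenoprotein mRNAs overlapped between the genotypes. Of the 15 references, limma with Benjamini-Hochberg adjustment called 0 at an adjusted p under 0.05, against 0% of all 11240 references tested, of which 775 had an unadjusted p under 0.05. The log2 coverage difference, Dnmt2-/- minus wild type, was above 0 for 7 references and below 0 for 8. Its median was −0.03 over the 15 references and 0.03 over all references tested. The groups did not overlap for 2 of the 15, Gpx4 NM_008162.3 and Txnrd2, beside 11.9% of all references tested.

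**Figure D1:**
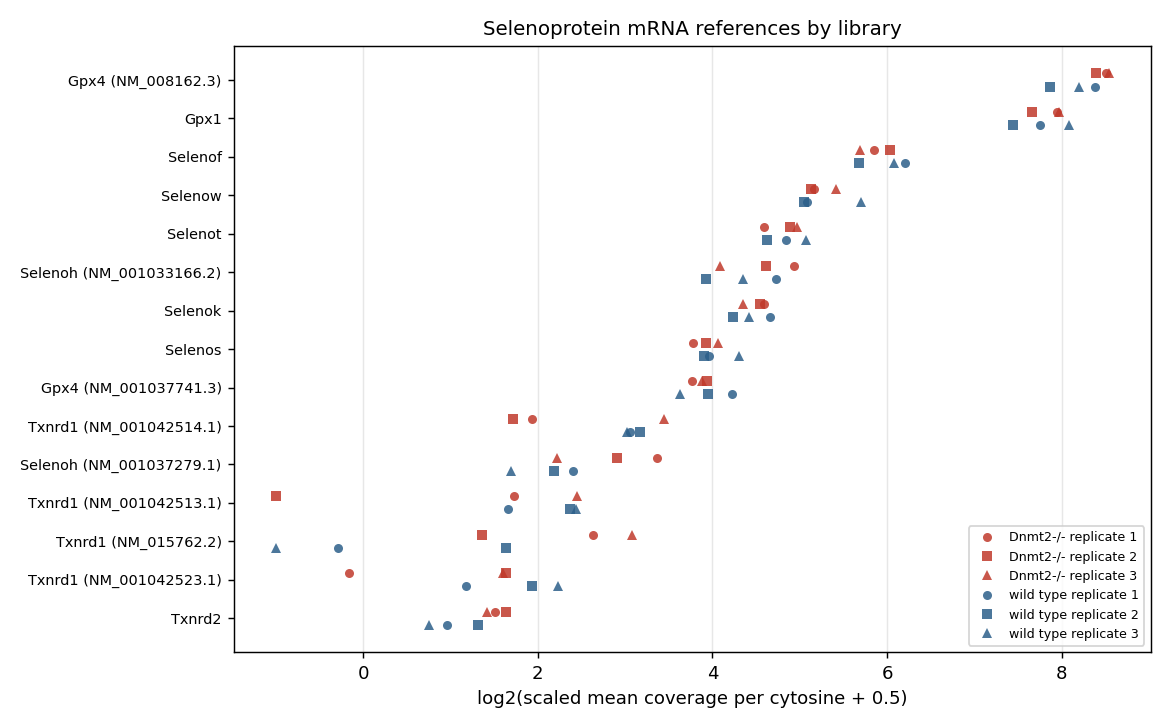
Scaled mean coverage per cytosine of the 15 selenoprotein references, on the x axis as log2(coverage + 0.5), with 1 point per library. Dnmt2-/- libraries are drawn above wild type libraries for each reference. Gpx4 NM_008162.3 and Gpx1 stand apart at the top, and the 4 Txnrd1 references scatter most between libraries.

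The glutathione peroxidases were the most deeply covered members. Gpx1, the abundant cytosolic peroxidase that reduces hydrogen peroxide with glutathione, had 246.8, 201.02 and 249.9 scaled reads per cytosine in the Dnmt2-/- libraries, against 215.8, 173.9 and 270.2 in the wild type libraries. The wild type libraries held both the lowest and the highest value, so the groups overlapped. The means were 233 ± 27.4 in Dnmt2-/- cells and 220 ± 48.3 in wild type cells (SD, n = 3 each). The log2 coverage difference was 0.10, with a 95% interval of −0.34 to 0.53, and −0.07 without wild type replicate 2. Gpx1 ranked 146 of all 15330 references by coverage.

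Gpx4 reduces phospholipid hydroperoxides within membranes, and its gene makes mitochondrial, cytosolic and nuclear forms from alternative starts. The cytosolic form has no reference of its own here, so its reads cannot be told apart from those given for the other forms. The reference of the mitochondrial form, NM_008162.3, had 364.2, 336.1 and 371.7 scaled reads per cytosine in the Dnmt2-/- libraries, against 333.2, 232.0 and 292.9 in the wild type libraries. Each Dnmt2-/- library was above each wild type library, and the nearest pair lay at 336.1 and 333.2. The log2 coverage difference was 0.34, with an interval of −0.05 to 0.72. The nuclear form's reference, NM_001037741.3, had 13.1, 14.8 and 14.2 scaled reads per cytosine in Dnmt2-/- libraries, against 18.1, 14.9 and 11.9 in wild type libraries, where the values lay on both sides of the mutant ones. Its log2 coverage difference was −0.07, but 1.5 when the median over cytosines replaced the mean, which gave 0.80 for the mitochondrial form's reference.

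Within each library the mitochondrial-form reference had 22.8 to 27.8 times the coverage of the nuclear-form reference in Dnmt2-/- cells and 15.5 to 24.7 times in wild type cells. These ranges overlapped. Both references were listed only near their own 5′ ends, at positions 81 to 453 and 14 to 332. The ratio therefore compares these stretches and not whole mRNAs, and it does not set the cytosolic form apart.

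**Figure D2:**
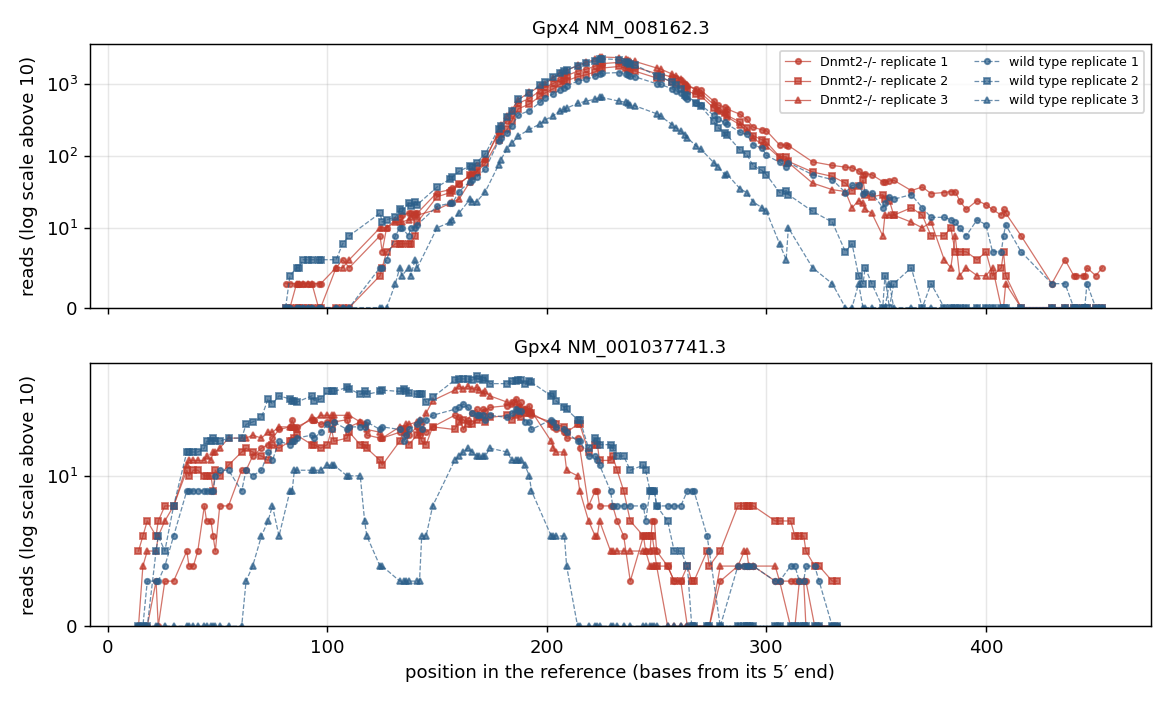
Reads at each listed cytosine along the 2 Gpx4 references, by library, with reads on the y axis (log scale above 10, not scaled for depth) and position from the 5′ end on the x axis. Solid red lines are Dnmt2-/- libraries and dashed blue lines are wild type libraries. Coverage of NM_008162.3 peaks in the same stretch in all 6 libraries, and wild type replicate 3, the shallowest library, runs lowest at the peak.

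The thioredoxin reductases, which keep thioredoxin reduced at the expense of NADPH, were covered thinly. Txnrd1, the cytosolic enzyme, had 4 references, each listed in a stretch of its own no further than position 301. NM_015762.2 had 5.72, 2.06 and 7.94 scaled reads per cytosine in the Dnmt2-/- libraries, against 0.321, 2.62 and 0 in the wild type libraries, and the groups overlapped. Its log2 coverage difference was 2.24, the largest of the 15 in size, with an interval of 0.52 to 3.95.

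The other Txnrd1 references pointed the other way, with log2 coverage differences of −0.71 for NM_001042514.1, −0.75 for NM_001042523.1 and −1.10 for NM_001042513.1. NM_001042514.1 had 3.31, 2.80 and 10.4 scaled reads per cytosine in the Dnmt2-/- libraries, against 7.79, 8.51 and 7.59 in the wild type libraries. Dnmt2-/- replicate 3 therefore lay above the whole wild type range and the other two below it. NM_001042523.1 had 0.395, 2.60 and 2.53 in the Dnmt2-/- libraries and 1.75, 3.32 and 4.18 in the wild type libraries, while NM_001042513.1 was unlisted in Dnmt2-/- replicate 2. Single libraries set the size of these differences: without Dnmt2-/- replicate 2 that of NM_001042513.1 was −0.07 and that of NM_001042514.1 was −0.39, without Dnmt2-/- replicate 1 that of NM_001042523.1 was −0.16, and without Dnmt2-/- replicate 3 they were −1.78, −1.26 and −1.04 in the order NM_001042513.1, NM_001042514.1 and NM_001042523.1. None of the 4 had a cytosine with 10 reads in all libraries, so no non-conversion level is given for Txnrd1.

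Txnrd2, the mitochondrial reductase, had 2.34, 2.61 and 2.18 scaled reads per cytosine in the Dnmt2-/- libraries, against 1.45, 1.98 and 1.19 in the wild type libraries. Every mutant value exceeded every wild type value, at a depth of a few reads. Of its 358 cytosines, 211, 215 and 155 were listed in the Dnmt2-/- libraries and 114, 249 and 40 in the wild type libraries. Before scaling, the highest mean was that of wild type replicate 2, the deepest library, at 3.23 reads. Unlisted cytosines count as 0 reads here, and their part in the difference was not tested. The log2 coverage difference was 0.51, with an interval of −0.25 to 1.28, and 1.04 with the median over cytosines.

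Selenow, Selenoh and Selenot are small proteins with a thioredoxin-like fold, of which Selenoh is nuclear and Selenot sits in the endoplasmic reticulum membrane. Selenow had 35.4, 34.6 and 42.2 scaled reads per cytosine in the Dnmt2-/- libraries, against 33.3, 32.7 and 51.5 in the wild type libraries. Selenot had 23.6, 29.2 and 30.9 in the Dnmt2-/- libraries, against 28.1, 24.2 and 33.1 in the wild type libraries. In both genes the wild type values spanned the mutant ones or overlapped them, and the log2 coverage differences were −0.04 and −0.03.

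Selenoh had 2 references. NM_001033166.2 had 30.1, 24.0 and 16.5 scaled reads per cytosine in the Dnmt2-/- libraries and 26.1, 14.8 and 19.9 in the wild type libraries. NM_001037279.1 had 9.80, 7.03 and 4.15 in the Dnmt2-/- libraries and 4.79, 4.04 and 2.74 in the wild type libraries, with overlapping groups. The log2 coverage difference of the second was 0.74, with an interval of −0.01 to 1.49, and 1.51 with the median over cytosines. Both were listed only in a stretch inside the reference, at positions 404 to 623 and 388 to 560.

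Selenof, Selenok and Selenos belong to the endoplasmic reticulum. Selenof binds the glycoprotein folding sensor Uggt1, Selenok is a cofactor of the palmitoyltransferase Zdhhc6, and Selenos joins the complex that takes misfolded proteins out of the endoplasmic reticulum. Selenof had 57.1, 64.8 and 51.1 scaled reads per cytosine in the Dnmt2-/- libraries, against 73.1, 50.6 and 66.9 in the wild type libraries. Selenok had 23.6, 22.9 and 19.8 in the Dnmt2-/- libraries, against 24.8, 18.4 and 20.9 in the wild type libraries. Selenos had 13.3, 14.6 and 16.2 in the Dnmt2-/- libraries, against 15.0, 14.5 and 19.2 in the wild type libraries. All 3 overlapped between genotypes, with log2 coverage differences of −0.13, 0.05 and −0.13.

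**Figure D3:**
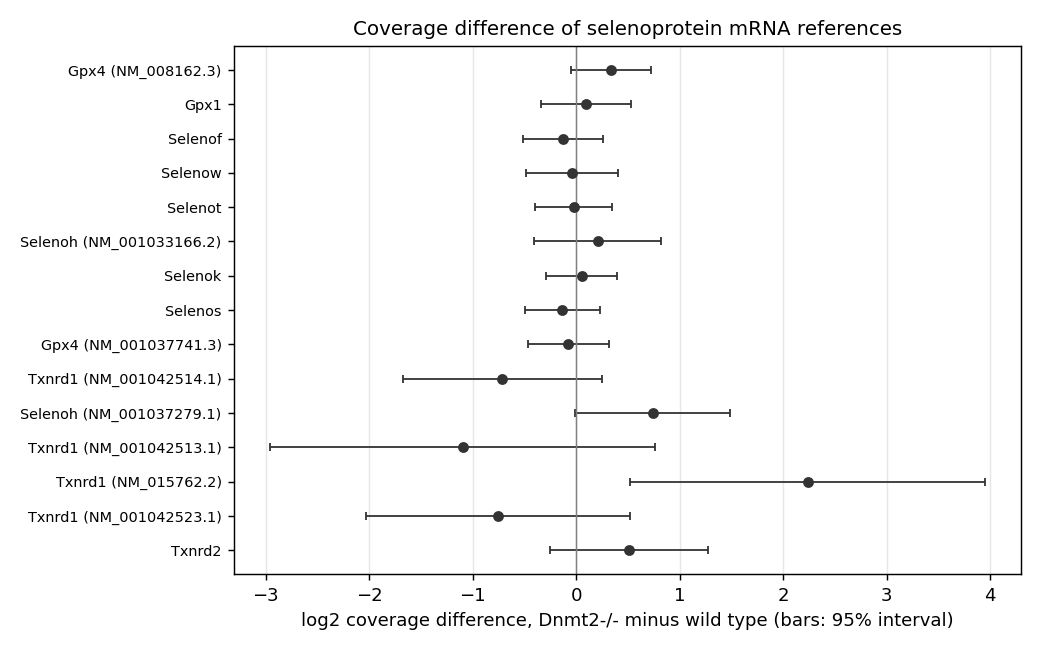
Log2 coverage difference of each of the 15 references, Dnmt2-/- minus wild type, on the x axis, with 95% intervals from limma (n = 3 each). The longest bars are those of the thinly covered Txnrd1 references. Gpx4 NM_008162.3, the most deeply covered, sits at 0.34 with an interval of −0.05 to 0.72. The interval that lies wholly above 0 is that of Txnrd1 NM_015762.2, from 0.52 to 3.95.

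Non-conversion was low over almost the whole of the selenoprotein mRNAs and high in 1 short stretch of Gpx1. Pooled over all cytosines with at least 10 reads in every library, 1.63%, 1.63% and 1.68% of Gpx1 reads kept the cytosine in the Dnmt2-/- libraries, against 1.46%, 1.41% and 1.79% in the wild type libraries. The other 8 references with such cytosines lay between 1.05% and 2.64% per library, and Selenos, which has few reads, gave both ends of that range. All 741725 mRNA cytosines of that depth had 1.85%, 1.85% and 1.47% in the Dnmt2-/- libraries and 1.66%, 1.49% and 1.59% in the wild type libraries, so the members lay near the level of the whole mRNA fraction.

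In Gpx1, 6 cytosines averaged 10% or more over the 6 libraries, and they lay within 19 bases of the reference, at positions 312, 313, 326, 328, 329 and 330. Position 326 was the highest, with non-conversion of 26.6%, 20.6% and 34.2% in the Dnmt2-/- libraries, against 15.3%, 13.8% and 31.6% in the wild type libraries. These values rest on 94, 63 and 117 reads in the Dnmt2-/- libraries and on 59, 138 and 38 reads in the wild type libraries. Their 95% Wilson intervals ran from 18.7% to 36.3%, from 12.5% to 32.2% and from 26.2% to 43.2% in the Dnmt2-/- libraries. In the wild type libraries the intervals were 8.24% to 26.5%, 8.99% to 20.5% and 19.1% to 47.5%. They cover counting error only, since the reads carry no molecular identifier and copies of 1 molecule may be counted apart.

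The 3 adjacent cytosines behaved alike. Position 328 had 12.5%, 12.0% and 31.4% in the Dnmt2-/- libraries, against 9.09%, 5.63% and 30.6% in the wild type libraries. Position 329 had 11.9%, 12.8% and 32.5% in the Dnmt2-/- libraries, against 7.58%, 5.41% and 31.4% in the wild type libraries. Position 330 had 14.0%, 11.8% and 26.9% in the Dnmt2-/- libraries, against 7.35%, 6.62% and 28.9% in the wild type libraries. In each genotype replicate 3 was well above replicates 1 and 2, and wild type replicate 3 exceeded Dnmt2-/- replicates 1 and 2 at each of these positions.

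At the upstream pair, replicate 3 was again the highest of each genotype. Position 312 had 11.3%, 12.3% and 21.7% in the Dnmt2-/- libraries, against 18.6%, 10.6% and 22.4% in the wild type libraries. Position 313 had 12.3%, 11.9% and 23.3% in the Dnmt2-/- libraries, against 14.5%, 6.62% and 25.9% in the wild type libraries. Between the pair and the downstream 4 lie cytosines 320 and 321, which were converted nearly fully, at 0% to 5.66% in any library. The next highest Gpx1 cytosines, at 333, 338, 305 and 294, averaged 5.00%, 4.84%, 4.51% and 3.43% over the 6 libraries.

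**Figure D4:**
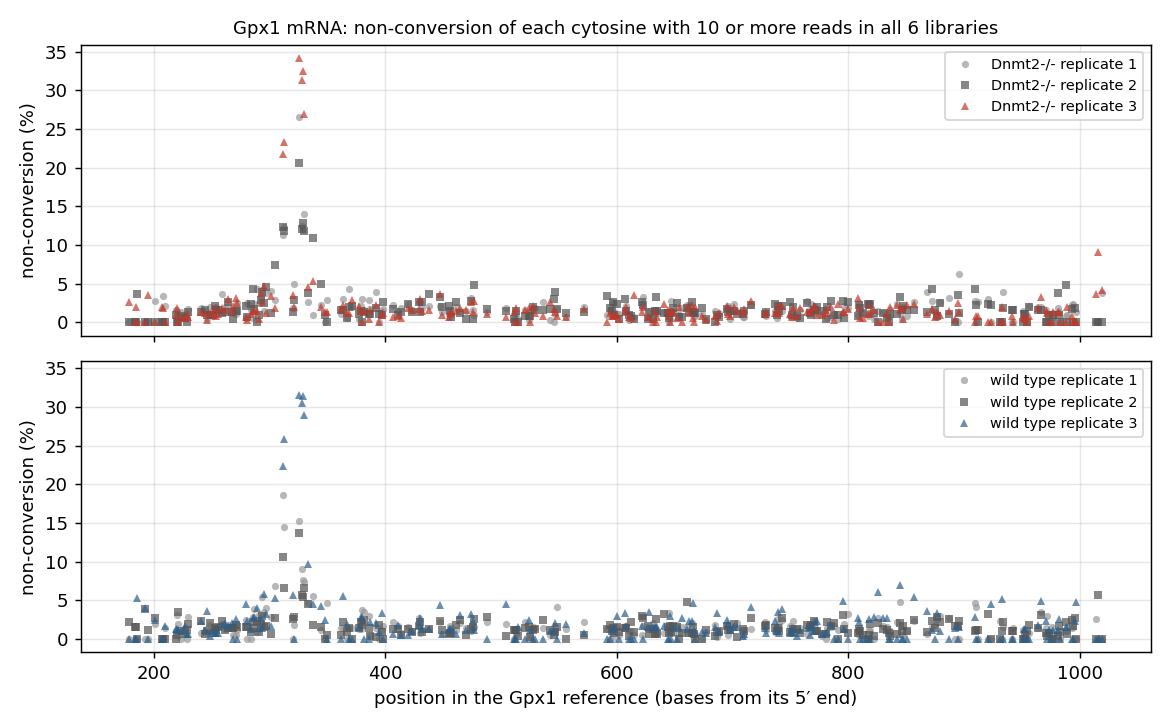
Non-conversion in percent of each Gpx1 cytosine with at least 10 reads in all 6 libraries, against position from the 5′ end of the reference, with Dnmt2-/- libraries in the upper panel and wild type libraries in the lower. The 6 high cytosines between positions 312 and 330 rise out of a flat line in both genotypes.

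The genotype differences at the 6 cytosines were smaller than the SD of the wild type libraries, which includes the step up in replicate 3. Without both libraries numbered 3, the differences (Dnmt2-/- minus wild type) were −2.81, 1.48 and 9.10 percentage points at positions 312, 313 and 326. At positions 328, 329 and 330 they were then 4.89, 5.88 and 5.94 percentage points. At position 326 the mean was 27.1% ± 6.79 in Dnmt2-/- cells and 20.2% ± 9.88 in wild type cells (SD, n = 3 each). At position 329 it was 19.1% ± 11.6 in Dnmt2-/- cells and 14.8% ± 14.4 in wild type cells. At position 312 it was 15.1% ± 5.74 in Dnmt2-/- cells and 17.2% ± 6.04 in wild type cells. The values of the genotypes overlapped at all 6.

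Counted against a level of 10%, all 6 reached it in every Dnmt2-/- library, and 2 of them, positions 312 and 326, in every wild type library. Of all 741725 cytosines of that depth, 0.0314% reached 10% in every Dnmt2-/- library and 0.0216% in every wild type library. The 4 cytosines that missed it in wild type cells were at 5.41% to 9.09% in the wild type libraries that fell short, which were replicates 1 and 2. In the edgeR fit on converted and non-converted counts over all 8193 cytosines with a mean non-conversion of 5% or more, 15 member cytosines were tested and 0 were called by genotype, beside 0% of all. In that fit 202 of all cytosines had an unadjusted p under 0.05, and Fisher's exact test on counts summed per genotype called 27, none in a selenoprotein mRNA.

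**Figure D5:**
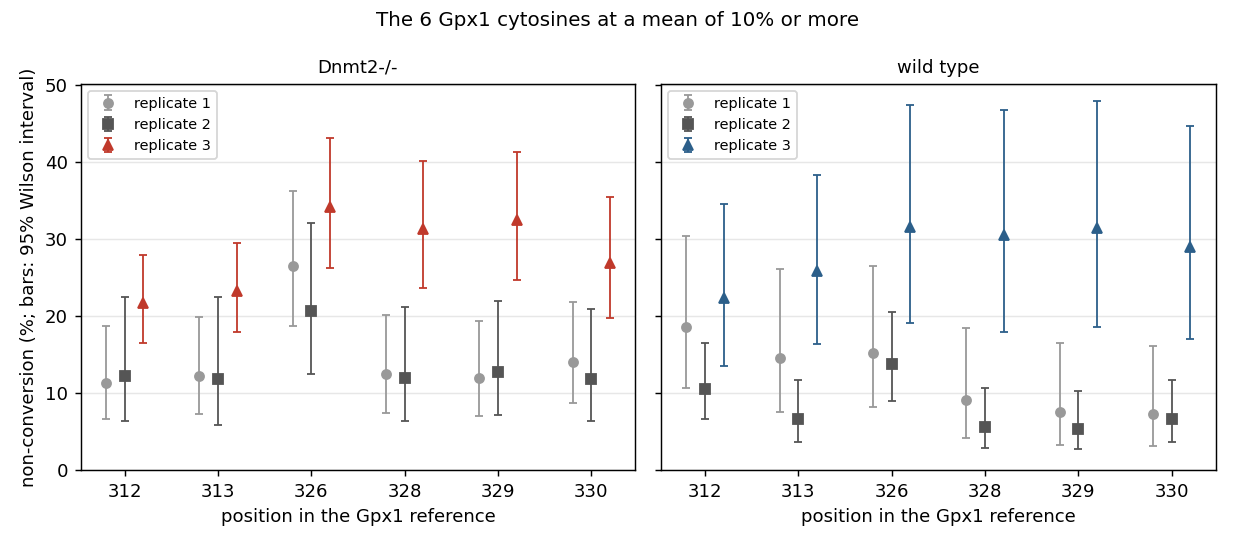
Non-conversion in percent of the 6 Gpx1 cytosines by library, with 95% Wilson intervals, Dnmt2-/- libraries on the left and wild type libraries on the right. Replicate 3 of each genotype is drawn in colour and is the highest of its genotype at all 6 positions.

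Outside the high stretch the libraries lay close together. Over the other 242 cytosines of the mRNA, pooled non-conversion was 1.51%, 1.53% and 1.38% in the Dnmt2-/- libraries, against 1.37%, 1.33% and 1.52% in the wild type libraries. Replicate 3 was the lowest of the Dnmt2-/- libraries there and the highest of the wild type libraries. Coverage dipped in the high stretch, to 39.5%, 35.6% and 51.8% of the Gpx1 mean in the Dnmt2-/- libraries and 34.9%, 52.1% and 46.1% in the wild type libraries. The dip reached past the stretch. Cytosines 305 and 333, just outside it, had 105 and 112 reads in Dnmt2-/- replicate 1 and 147 and 155 in wild type replicate 2. Their non-conversion averaged 4.51% and 5.00% over the 6 libraries. The labels name no batch that the replicate number stands for. The part of the dip and of the library in the non-conversion of these sites was not tested. The tables list each cytosine by itself, so whether the same reads kept all 6 cytosines was not analysed here.

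References with as many high cytosines as Gpx1 were uncommon in the mRNA fraction. Among the 741725 cytosines, 456 averaged 10% or more, and they lay in 252 of 5920 mRNA references. Gpx1 was 1 of 12 references with at least 6 such cytosines, counted at any distance from each other and without matching for depth. Of the 456, 48.5% lay within 20 bases of another, and 58.3% were next to another cytosine in the list of cytosines, against 46.7% of all 741725. The 456 made up 0.0615% of the 741725 cytosines. The other selenoprotein references held 0 of the 456, and at so low a share this count does not set them apart from other mRNAs.

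The highest single cytosine of every other member stayed under 10% on average. Selenot position 124 came nearest, with 15.2%, 0% and 2.63% in the Dnmt2-/- libraries, against 4.55%, 6.0% and 27.3% in the wild type libraries. Each genotype had its high value in a different replicate, with no shared order. Selenos position 149 averaged 5.68%, Selenok position 125 averaged 5.43%, Gpx4 NM_001037741.3 position 184 averaged 5.31%, and Selenow position 250 averaged 5.17%. The highest cytosines of Selenof, Gpx4 NM_008162.3 and Selenoh averaged 4.94%, 3.46% and 3.42%. In Selenow, Selenok, Selenot and Selenos the highest value came from wild type replicate 3, the shallowest library.

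The depth minimum decided which cytosines were read. In 49 member cytosines the thinnest library had exactly 10 reads, and their mean non-conversion ran from 0% to 4.96%. In 36 left out with 9 reads in the thinnest library it ran from 0% to 4.19%.

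Summed over whole mRNAs with at least 20 such cytosines, 8 member references entered the edgeR fit and 0 were called by genotype, beside 0% of all 4349, of which 103 had an unadjusted p under 0.05. A single library decides this count for the whole mRNA fraction. Without Dnmt2-/- replicate 3, which had the lowest overall non-conversion of the mutant libraries, 14.1% of 4360 references were called higher in Dnmt2-/- cells. Of the members, Selenot was then called, at 1.96% in Dnmt2-/- cells and 1.55% in wild type cells. Without replicate 3 of both genotypes 114 references were called, and 0 of them were members.

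Like all other references tested, the mRNAs of the machinery that makes and inserts selenocysteine were not called by genotype. Of 17 references in that group, 0 were called higher and 0 lower, beside 0% of all references tested. Ncl, which codes for nucleolin, an RNA-binding protein that can bind the selenocysteine insertion element, had 89.0, 115 and 90.5 scaled reads per cytosine in the Dnmt2-/- libraries, against 129.7, 108 and 106 in the wild type libraries. Eif4a3, which can block insertion on some selenoprotein mRNAs, had 54.8, 51.1 and 56.4 in the Dnmt2-/- libraries, against 49.1, 49.5 and 69.2 in the wild type libraries. The median log2 coverage difference of the group was −0.07. The genotypes did not overlap for 4 of its references, beside 11.9% of all tested: Secisbp2, Scly and Sars NM_011319.3 were higher in Dnmt2-/- cells and Elavl1 was lower, all named after their values were seen and none of them called. Among 10 references of other selenoprotein genes, 9 were deep enough to test and 0 were called in either direction, beside 0% of all references tested. Their best covered members were Sephs2, the selenophosphate synthetase, with a log2 coverage difference of 0.07 ± 0.13 (SE), and Msrb1, a methionine sulfoxide reductase, with 0.33 ± 0.13.

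The selenium-free thiol antioxidants gave 0 called of 32 references tested, beside 0% of all references tested. Of the 32, 16 were higher and 16 lower, with a median log2 coverage difference of 0.01. The best covered were Sod1, the cytosolic superoxide dismutase, and Prdx1, a peroxiredoxin reduced by thioredoxin. Sod1 had 430.9, 383.8 and 582.0 scaled reads per cytosine in the Dnmt2-/- libraries, against 452.9, 410.8 and 664.1 in the wild type libraries. Prdx1 had 368.2, 392.8 and 349.3 scaled reads per cytosine in the Dnmt2-/- libraries, against 424.8, 318.04 and 404.6 in the wild type libraries. The mRNAs of partners of the endoplasmic reticulum selenoproteins gave 0 called of 15 tested, beside the same 0% of all. Of the 15, 10 were higher and 5 lower, with a median of 0.10. Among these Hspa5, the chaperone BiP of the endoplasmic reticulum, had 123.5, 128.1 and 219.5 scaled reads per cytosine at NM_001163434.1 in the Dnmt2-/- libraries, against 163.1, 101.8 and 185.7 in the wild type libraries. At its second reference, NM_022310.3, it had 79.9, 79.6 and 75.4 in the Dnmt2-/- libraries, against 68.6, 53.0 and 67.5 in the wild type libraries, where the groups did not overlap and limma made no call. Vcp, the ATPase that Selenos recruits, had 94.4, 92.0 and 91.2 scaled reads per cytosine in the Dnmt2-/- libraries, against 94.1, 82.0 and 103 in the wild type libraries. All of these groups were chosen with results of these libraries known.

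The tRNA of selenocysteine, read in the small-RNA fraction of the same cells, had no highly non-converted cytosine. Its gene with reads lies on chromosome 7 of mm9, from 19886593 to 19886678 on the plus strand, and 23 of its 24 listed cytosines had at least 10 reads in all 6 small-RNA libraries. Pooled non-conversion of these was 1.64%, 1.61% and 1.40% in the Dnmt2-/- libraries, against 1.71%, 1.63% and 1.64% in the wild type libraries. The groups overlapped, and the means were 1.55% ± 0.130 in Dnmt2-/- cells and 1.66% ± 0.0437 in wild type cells (SD, n = 3 each). The highest cytosine, at listed position 88, averaged 4.81% over the 6 libraries. It had 4.35%, 4.12% and 1.28% in the Dnmt2-/- libraries, against 6.21%, 5.21% and 7.69% in the wild type libraries. Position 88 lies past the length of the gene interval given above, and which base it stands for was not determined. The genotypes did not overlap at position 88, nor at position 15. The latter had 1.64%, 1.62% and 1.44% in the Dnmt2-/- libraries, against 1.80%, 1.82% and 1.69% in the wild type libraries. How often groups fail to overlap over all tRNA cytosines was not counted, so nothing is read from these 2 positions. No cytosine of this tRNA reached 10% in every library of either genotype. Of 2361 cytosines in the other tRNA references, 7.62% reached 10% in every Dnmt2-/- library and 7.96% in every wild type library.

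No cytosine of this tRNA averaged 5%, so none entered the main tRNA fit, in which 5.28% of 265 cytosines were called by genotype. With the minimum at 1%, 18 of its cytosines were tested and 0 were called, beside 0.951% of 1577. A second annotated copy, on chromosome 5 of mm9 from 5627681 to 5627751, had 0 to 15 reads per cytosine and is given no level.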

How the data were processed

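RNA bisulfite sequencing tables of 12 libraries were used: 3 Dnmt2-/- and 3 wild type libraries of the mRNA fraction, and as many of the small fraction. The authors deposited, per the file headers, a coverage count (reads per cytosine) and an unconversion ratio, a fraction of those reads, with no cytosine under 3 reads listed. The submitters' processing notes name BSMAP, a bisulfite read aligner, and the build mm9; other settings were not stated in any source used. Coverage times fraction was whole at every cytosine within 0.01 and gave non-converted counts. An unlisted cytosine was taken as 0 reads. This can lower the mean of a thinly covered reference most in the shallow libraries, and scaling does not undo it. Its part in the coverage differences was not tested. Symbols came from the RefSeq gene table of GRCm38.p6, which matched 15239 of 15330 accessions.

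Mean coverage per reference was scaled by TMM factors (edgeR 4.0.16), filtered at a mean of 1 and tested as log2(value + 0.5) with limma 3.58.1 in R 4.3.3. This pseudocount understates differences of low references. Converted and non-converted counts were tested with edgeR's quasi-likelihood test, with a term per library, at cytosines of at least 10 reads in all libraries and a mean non-conversion of 5%, and, with no minimum level, over references with at least 20 cytosines of that depth. Benjamini-Hochberg adjustment ran over each whole table, at 0.05. Both tests were tested on simulated data. No library repeated another: 1.68% to 7.80% of cytosines shared within a group had identical coverage and fraction.

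The members and lists were chosen with earlier results of these data known. Genes named from a list are the 2 with the highest coverage where none was called (for marker lists the first is given with values), and others are said to be named after their values were seen; cytosines named are the 10 highest of Gpx1 and the highest of each other member. Alternatives covered scaling, pseudocount, filters, depth and level minimums, left-out libraries and a replicate block. The undepleted long libraries were not used.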

Additional observations from a re-analysis of the deposited data

How the results depend on the processing

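No selenoprotein reference was called for coverage under any of the alternatives run, and no selenoprotein cytosine was called by genotype. Over all references the coverage count was 1 with the median over cytosines in place of the mean, and 0 to 1 with a library left out. Over all cytosines the count by genotype was 27 with Fisher's exact test and 0 to 1 with a library left out. Over whole transcripts it was 2 with a coverage of 5 or more, 1 with the replicate block, 114 without both libraries numbered 3, and 0 to 615 with a library left out, while the count of members was 0 to 1. With a level of 20% in place of 10%, 1 member cytosine was high in every Dnmt2-/- library and 0 in every wild type library. At the 10% level, with a library left out, the counts were 6 to 7 in Dnmt2-/- cells and 2 to 3 in wild type cells. The median over cytosines moved the log2 coverage difference by more than the spread between replicates for Gpx4 NM_001037741.3 (1.5), Gpx4 NM_008162.3 (0.80), Txnrd2 (1.04) and Selenoh NM_001037279.1 (1.51); the cause was not tested. Leaving out transcripts unlisted in a library was added after the data were seen. The replicate numbers were not treated as pairs. In log2 scaled coverage the same-numbered libraries' deviations from their group means correlated at 0.14, 0.04 and 0.30, and for non-conversion no such correlation was computed. With the replicate block 0 selenoprotein references or cytosines were called. Wild type replicate 3, with a median of 6 reads per listed cytosine, limits which cytosines could be read.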

Other observations

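Of 9 references of other selenoprotein genes tested, the genotypes did not overlap in coverage for 3, beside 11.9% of all references tested. These 3 are named here after their values were seen, and limma called none of them. Dio3, the deiodinase that inactivates thyroid hormone, had 4.49, 3.43 and 3.38 scaled reads per cytosine in the Dnmt2-/- libraries, against 0.964, 1.39 and 0.714 in the wild type libraries, an adjusted p of 0.368. Gpx2, the gastrointestinal glutathione peroxidase, had 1.86, 2.84 and 2.14 in the Dnmt2-/- libraries, against 0, 0.462 and 0.265 in the wild type libraries, an adjusted p of 0.462. Msrb1 had 13.0, 12.2 and 13.3 in the Dnmt2-/- libraries, against 10.4, 10.1 and 9.80 in the wild type libraries, an adjusted p of 0.601.

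In the selenium-free antioxidant group the genotypes did not overlap for 6 of 32 references, none of them called: Gsr, Hmox1, Prdx2, Prdx4 and Nqo1 were lower in Dnmt2-/- cells and Glrx was higher. They too were named after their values were seen. Gsr, the reductase that regenerates glutathione for Gpx1 and Gpx4, had 13.7, 15.0 and 14.9 scaled reads per cytosine in the Dnmt2-/- libraries, against 26.0, 25.2 and 31.6 in the wild type libraries, an adjusted p of 0.328 by limma. Hmox1, the haem oxygenase induced under oxidative stress, had 32.4, 33.4 and 44.2 in the Dnmt2-/- libraries, against 68.2, 53.5 and 81.2 in the wild type libraries, an adjusted p of 0.368. Prdx2, an abundant cytosolic peroxiredoxin, had 119.8, 117.8 and 122.2 in the Dnmt2-/- libraries, against 155.6, 144.1 and 201.6 in the wild type libraries, an adjusted p of 0.489. Elavl1, an RNA-binding protein listed with the selenocysteine machinery, had 15.0, 16.0 and 14.1 in the Dnmt2-/- libraries, against 22.8, 18.6 and 21.9 in the wild type libraries, an adjusted p of 0.401. Of all references tested, 11.9% had genotypes that did not overlap.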
